A study of Caenorhabditis elegans with 6 samples.

Results

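The UDP-glycosyltransferase genes of Caenorhabditis elegans, named ugt with a number, were followed in worms exposed to the anthelmintic drug albendazole (ABZ). The genes described are those whose symbol in the platform's annotation starts with ugt-, except ugt-5, ugt-13, ugt-16, ugt-22, ugt-41, ugt-53 and ugt-63, and each is read from a probe set that lists this gene alone. Where a gene had several such probe sets, the one with the highest mean over the 6 arrays was used. This gave 57 genes of the 64 ugt genes with a probe set of their own, and of 17118 such genes on the array. The 7 genes left out hold most of the large fold changes of the family in this same comparison. The smaller size of the fold changes among the 57 is therefore partly a product of how they were chosen, and counts over them are given as descriptions.

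UDP-glycosyltransferases are enzymes of the endoplasmic reticulum membrane that move a sugar from a UDP-sugar onto small fat-soluble molecules, which makes these more soluble and easier to excrete. They belong to phase II of drug metabolism, which follows the oxidation of a foreign compound by enzymes such as the cytochromes P450. In vertebrates the sugar is mostly glucuronic acid, whereas nematodes mostly transfer glucose, and glucose conjugates of albendazole are known from C. elegans. The substrates of most single ugt genes of the worm are not established, so the genes below are described by their values, their neighbours on the chromosome and their probe sets.

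All worms were of strain CB3474, which carries ben-1(e1880)III, an allele of the β-tubulin gene through which benzimidazole drugs act on the worm. They were grown from synchronised first-stage larvae for 70 h in liquid culture at 20 °C, about 10000 for each condition, so each sample is RNA of many whole worms. In the ABZ group the culture held 300 µg/ml of the drug with 1.5% by volume of the solvent dimethyl sulfoxide (DMSO) for 4 h, and in the DMSO group the same share of solvent alone. Each group had 3 biological replicates, each on 1 Affymetrix array. Because both groups carry the mutation, worms without it could not be compared.

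The values are log2 signals of probe sets, which are groups of short probes for 1 transcript. A signal depends on the probes as well as on the RNA, so a gene was compared only with itself across arrays. All 57 gene numbers gave the same symbol in the RefSeq gene table of assembly WBcel235, where all 57 are protein-coding; ugt-34, ugt-49 and ugt-65 of that table were not analysed here. The name of 11 of the 57 probe sets ends in s_at, which marks probes that can match several related transcripts, and whether single probe sets tell related ugt genes apart was not tested. One further probe set lists ugt-22 together with another gene and was not used. Whole-worm RNA mixes all tissues, so fewer cells of a type and less RNA per cell cannot be told apart.

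The array of DMSO replicate 1 stood apart. Its correlation across probe sets with the other arrays lay between 0.934 and 0.943, against 0.988 to 0.996 among the other 5, and its signals were spread less widely (SD 1.73 against 1.98 to 2.02). The summed signal of 4 neuronal markers was 35.4 on this array and 38.4 to 39.4 on the others, and their median log2 fold change was 0.42 with it and 0.10 without it. For 5 germline and oocyte markers the sum was 56.5 against 58.9 to 61.0, and the median of 0.15 turned to -0.19. For 6 intestinal markers it was 62.7 against 63.4 to 65.1, with medians of 0.19 and 0.18. Of the 9 tissue lists, those of body wall muscle (32.5 against 32.6 to 34.3) and yolk (27.2 against 27.5 to 27.8) were also lowest on this array. The sums of pharynx, epidermis and cuticle, sperm and embryo markers were not. The sperm median was 0.22 with this array and 0.31 without it. The part of these shifts in the results on ugt genes was not tested. When the 57 ugt genes were split by mean signal into 3 sets of 19, DMSO replicate 1 in the brightest set lay below the mean of the other 5 arrays for 16 of 19 genes. In the dimmest set it lay above that mean for 14 of 19 genes. It was the highest or the lowest of the 6 arrays for 42 of the 57 genes. It was the highest for 17 (29.8%, against 37.2% of all genes) and the lowest for 25 (43.9%, against 46.3%). Results are therefore given with and without this array.

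**Figure D1:**
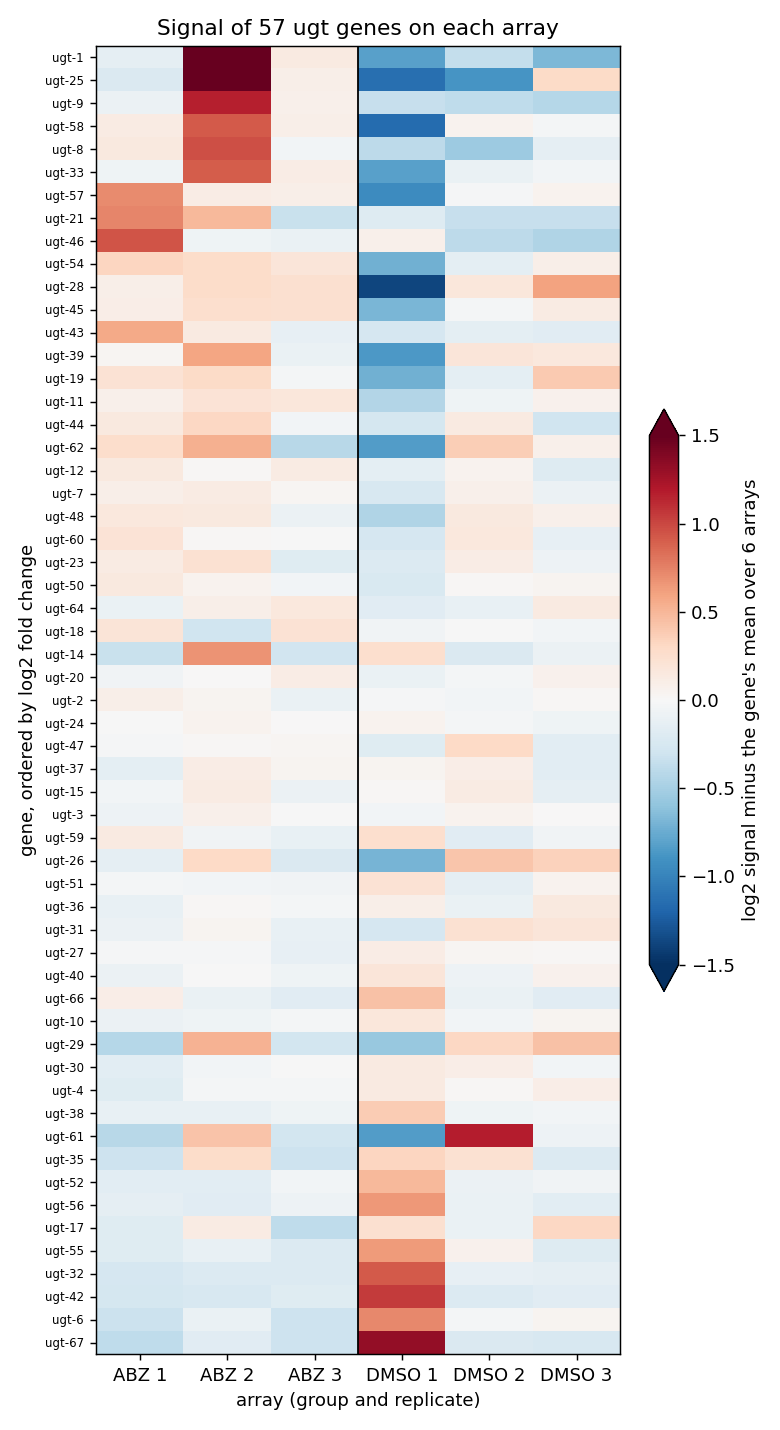
Log2 signal of each of the 57 ugt genes (rows, from the highest to the lowest log2 fold change) on each of the 6 arrays (columns), shown as the difference from the gene's mean over the arrays; colours saturate at 1.5 in either direction. ABZ replicate 2 is red for a set of genes at the top, and DMSO replicate 1 is blue at the top and red at the bottom.

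The question was which of these genes differed in transcript level after 4 h of the drug. None of the 57 passed limma's test over all 22548 probe sets at an adjusted p under 0.05, and the smallest adjusted p was 0.651. Over all 17118 genes the share that passed was 0.0%. At an unadjusted p under 0.05 there was 1 ugt gene, ugt-8, on the higher side, where 1.45% of all genes stood, and 0 on the lower side, where 0.368% stood. Without DMSO replicate 1 there were 1 higher (ugt-54) and 2 lower (ugt-6 and ugt-31), against 2.73% and 2.84% of all genes and 5.57% in both directions together, and the smallest adjusted p was 0.775.

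The log2 fold change, ABZ minus DMSO, was positive in 32 of the 57 genes (56.1%) and in 52.2% of all genes. Its median was 0.03 over the 57 and 0.02 over all genes, with a range of -0.58 to 1.23 among the 57. Without DMSO replicate 1, 33 were positive (57.9%, against 41.4% of all genes), and the medians were 0.01 and -0.02. Without ABZ replicate 2, 30 were positive, against 51.8% of all genes, and 2 genes, ugt-1 and ugt-9, had an unadjusted p under 0.05, both higher, where 1.09% of all genes stood in either direction. The sign differed without DMSO replicate 1 in 9 genes, ugt-15, ugt-28, ugt-47, ugt-48, ugt-51, ugt-56, ugt-59, ugt-62 and ugt-66, none of which had a log2 fold change beyond 0.18 in size once it was left out. With array weights 20 of the 57 had an unadjusted p under 0.05, where 20.1% of all genes stood. Of the 20, 13 were higher, against 8.03% of all genes, and 7 lower, where a larger share of all genes stood. None of the 57 was called with these weights, where 0.123% of all genes were.

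How precisely these values were measured differed from gene to gene. For 38 of the 57 genes (66.7%) the 95% confidence interval of the log2 fold change lay within a 2-fold change in either direction, against 81.4% of all genes. Without DMSO replicate 1 this held for 47 of the 57 (82.5%) and for 97.7% of all genes. The standard error (SE) of the log2 fold change had a median of 0.19 among the 57 and 0.17 over all genes, and 0.10 and 0.08 without that array. The depth of an array cannot be read from the files, and 3 arrays a group limit the precision.

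**Figure D2:**
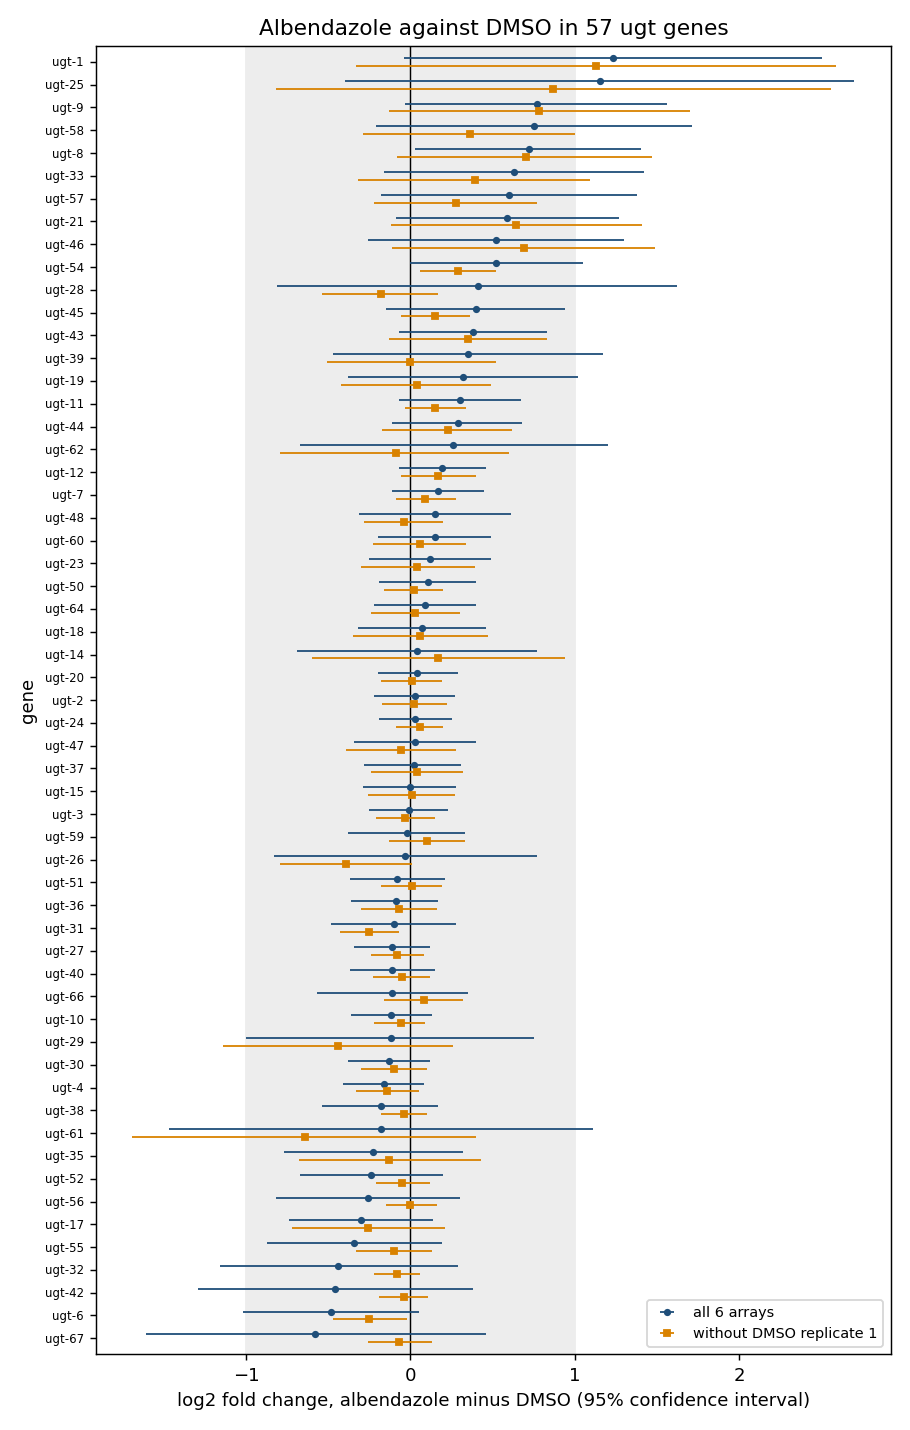
Log2 fold change (ABZ minus DMSO, x axis) of each of the 57 ugt genes (y axis) with its 95% confidence interval from limma, with all 6 arrays (circles) and without DMSO replicate 1 (squares); the grey band marks changes of less than 2-fold. For 38 genes the interval with all arrays lies inside the band.

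In 12 of the 57 genes the values of both groups did not overlap, 8 with ABZ above DMSO and 4 with ABZ below. Over all genes, 7.17% had all ABZ values above and 10.2% below all DMSO values. The 8 genes with ABZ above were ugt-1, ugt-8, ugt-9, ugt-11, ugt-43, ugt-54, ugt-57 and ugt-58, and their signs held under all 3 other scalings (a shift to 1 median, quantile and cyclic loess). With DMSO replicate 1 left out there were 11 above and 6 below, against 9.6% and 15.6% of all genes.

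For ugt-8 (NCBI gene 186768), the log2 signals were 8.32, 9.14 and 8.13 with albendazole and 7.78, 7.63 and 8.04 with DMSO, in the order of the replicates. The gap between the groups was small, 8.13 against 8.04, and ABZ replicate 2 lay well above the other 2 albendazole arrays. The means were 8.53 ± 0.53 and 7.81 ± 0.21 (SD, n = 3 each). The ABZ signal was thus 1.64-fold that of DMSO (log2 0.72, SE 0.28; limma p 0.0425, adjusted p 0.651). With DMSO replicate 1 left out, this log2 value was 0.70 (p 0.0691), and without ABZ replicate 2 it was 0.41 (p 0.0659).

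The gene ugt-9 (gene 178883) stood at 7.08, 8.33 and 7.25 with albendazole and at 6.82, 6.79 and 6.74 with DMSO. Here the 3 DMSO arrays, replicate 1 included, lay close together, and ABZ replicate 2 was again the highest array. The log2 fold change was 0.77 (SE 0.33; limma p 0.0571, adjusted p 0.651), a 1.70-fold higher signal. It was 0.78 without DMSO replicate 1, and 0.38 (p 0.0343, adjusted p 0.815) without ABZ replicate 2.

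The gene ugt-1 (gene 179449) had the largest fold change of the 57. Its signals were 8.0, 9.99 and 8.27 with albendazole and 7.33, 7.78 and 7.47 with DMSO, or 8.75 ± 1.08 against 7.53 ± 0.23 (SD, n = 3 each). The albendazole mean rests largely on ABZ replicate 2, while the other 2 albendazole arrays still lay above every DMSO array. The signal was 2.34-fold higher (log2 1.23, SE 0.52; limma p 0.0560, adjusted p 0.651). Without ABZ replicate 2 the log2 fold change was 0.61, with a smaller p of 0.0245 and an adjusted p of 0.815.

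In ugt-54 (gene 188885) the albendazole arrays agreed closely, at 7.13, 7.08 and 6.99, and the DMSO arrays read 6.08, 6.66 and 6.89. DMSO replicate 1 was the lowest array, and the log2 fold change of 0.52 (SE 0.22; limma p 0.0506, adjusted p 0.651) became 0.29 without it (SE 0.09; p 0.0215, adjusted p 0.775). In ugt-11 (gene 178882) the albendazole arrays read 7.17, 7.29 and 7.26 and the DMSO arrays 6.65, 7.02 and 7.15, with the same array lowest. The fold change was 0.30 in log2 (SE 0.15; limma p 0.0962), and 0.15 without DMSO replicate 1.

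The remaining 3 of these 8 genes differed in which array set the distance. In ugt-43 (gene 184052) the albendazole arrays stood at 8.0, 7.57 and 7.31 and the DMSO arrays at 7.18, 7.29 and 7.27, so that ABZ replicate 3 lay next to the DMSO values. This gave a log2 fold change of 0.38 (SE 0.19; limma p 0.0832), of 0.35 without DMSO replicate 1 and of 0.20 (p 0.213) without ABZ replicate 1. In ugt-57 (gene 180969) the albendazole arrays stood at 8.26, 7.66 and 7.64 and the DMSO arrays at 6.61, 7.54 and 7.61. Both DMSO replicates 2 and 3 came close to the albendazole values, and the log2 fold change of 0.60 (SE 0.32; limma p 0.110) was 0.28 without DMSO replicate 1 and 0.39 without ABZ replicate 1. In ugt-58 (gene 174507) the albendazole arrays stood at 10.22, 11.02 and 10.19 and the DMSO arrays at 8.95, 10.16 and 10.07. DMSO replicate 1 and ABZ replicate 2 were the extremes, and the log2 fold change of 0.75 (SE 0.39; limma p 0.105) was 0.36 without the former and 0.48 without the latter.

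**Figure D3:**
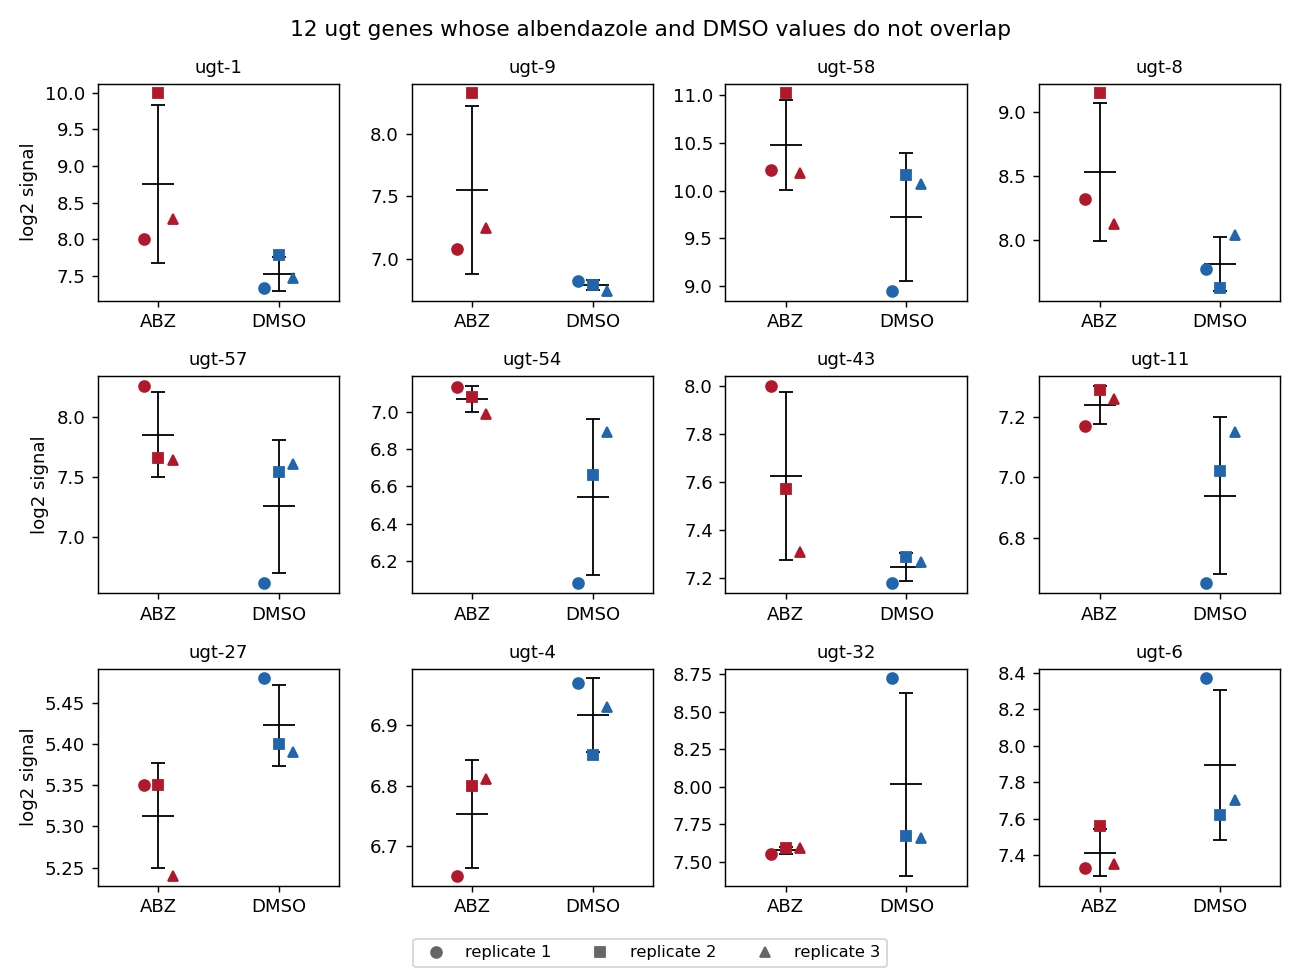
Log2 signal (y axis, scaled for each gene) of the 12 ugt genes whose albendazole (ABZ) and DMSO values do not overlap; symbols are single arrays, and bars are the mean and SD of 3. ABZ replicate 2 is the highest point in ugt-1, ugt-8, ugt-9, ugt-11 and ugt-58, and DMSO replicate 1 lies far from the other DMSO arrays in ugt-6, ugt-32, ugt-54, ugt-57 and ugt-58.

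The 4 genes with all albendazole values below all DMSO values were ugt-4, ugt-6, ugt-27 and ugt-32. In ugt-6 (gene 179755) the signals were 7.33, 7.56 and 7.35 with albendazole and 8.37, 7.62 and 7.70 with DMSO, so the gap was narrow apart from DMSO replicate 1. The means were 7.41 ± 0.13 and 7.90 ± 0.41 (SD, n = 3 each), with a log2 fold change of -0.48 (SE 0.22; limma p 0.0687, adjusted p 0.651). Without DMSO replicate 1 it was -0.25 (SE 0.09; p 0.0349, adjusted p 0.775).

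For ugt-4 (gene 179754) the albendazole arrays read 6.65, 6.80 and 6.81 and the DMSO arrays 6.97, 6.85 and 6.93, a tight pair of groups with a log2 fold change of -0.16 (SE 0.10; limma p 0.152). It was -0.14 without DMSO replicate 1. The gene ugt-32 (gene 185911) read 7.55, 7.59 and 7.59 against 8.72, 7.67 and 7.66. Its log2 fold change of -0.44 (SE 0.30; limma p 0.194) was -0.08 without DMSO replicate 1, the array that stood 1.11 above the mean of the other 5. In ugt-27 (gene 182508), a dim probe set at 5.35, 5.35 and 5.24 against 5.48, 5.40 and 5.39, the log2 fold change was -0.11 (SE 0.09; limma p 0.289) and turned to 0.003 under cyclic loess normalization.

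The other named genes with negative fold changes had overlapping groups. Most of their distance lay in DMSO replicate 1. In ugt-67 (gene 186769), with the lowest fold change of the 57, this array read 8.70 while the other 5 lay between 7.0 and 7.21. The log2 fold change of -0.58 (SE 0.43; limma p 0.223) became -0.07 without it. In ugt-42 (gene 185168) DMSO replicate 1 read 8.05 and the others 6.74 to 6.83, and the fold change of -0.46 became -0.04. Likewise, without that array the log2 fold change of ugt-52 went from -0.24 to -0.05, that of ugt-55 from -0.34 to -0.10 and that of ugt-38 from -0.18 to -0.04. The value of ugt-17 (gene 179406) rested less on it, at -0.30 with all arrays (SE 0.18; limma p 0.146) and -0.26 without, but was -0.18 without ABZ replicate 3, and ugt-30 had -0.13 and -0.10.

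On the higher side, ugt-21 and ugt-33 completed the 10 smallest p values. The gene ugt-21 (gene 183141) read 7.86, 7.62 and 6.79 with albendazole and 6.94, 6.78 and 6.78 with DMSO. ABZ replicate 3 lay among the DMSO values, and the log2 fold change was 0.59 (SE 0.28; limma p 0.0783) with all arrays and 0.64 without DMSO replicate 1. It depended on the albendazole arrays, at 0.37 (p 0.227) without ABZ replicate 1 and 0.91 (p 0.00149, adjusted p 0.809) without ABZ replicate 3. The gene ugt-33 (gene 179464) read 6.98, 7.95 and 7.15 against 6.23, 6.94 and 7.0, where ABZ replicate 1 lay just below DMSO replicate 3. Its log2 fold change was 0.63 (SE 0.33; limma p 0.0982), and 0.39 without DMSO replicate 1 and 0.34 without ABZ replicate 2.

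The genes that varied most over the 6 arrays were ugt-25, ugt-1, ugt-58, ugt-61 and ugt-28, with ranges from 1.99 to 2.99 on the log2 scale. In ugt-25 (gene 172087) the arrays read 8.07, 10.15 and 8.38 with albendazole and 7.16, 7.41 and 8.58 with DMSO. The groups overlapped, since DMSO replicate 3 lay above ABZ replicates 1 and 3, and the 2.22-fold higher mean (log2 1.15) had a 95% confidence interval from -0.40 to 2.70. Without ABZ replicate 2 the log2 fold change of ugt-25 was 0.51 (limma p 0.314). Only ugt-25 and ugt-1 had a fold change of at least 2 among the 57, and none was lower by that much, against 0.181% and 0.0234% of all genes. With DMSO replicate 1 left out it was ugt-1 alone, and none was lower, against 0.187% and 0.0759%. Without ABZ replicate 2 it was none in either direction, against 0.193% and 0.0818%.

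In ugt-61 (gene 185500) the widest gap was within the controls. The DMSO arrays read 7.01, 9.03 and 7.77 and the albendazole arrays 7.43, 8.27 and 7.57, so DMSO replicates 1 and 2 enclosed every albendazole value. Its log2 fold change was -0.18 (SE 0.53; limma p 0.742), -0.64 without DMSO replicate 1 and 0.37 without DMSO replicate 2. In ugt-28 (gene 172086) the albendazole arrays agreed, at 8.23, 8.42 and 8.38, and DMSO read 6.76, 8.31 and 8.75. The log2 fold change of 0.41 (SE 0.50; limma p 0.446) turned to -0.18 without DMSO replicate 1.

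The smallest standard errors, 0.09 to 0.10, belonged to ugt-24, ugt-27, ugt-3, ugt-2 and ugt-4. The probe sets of ugt-27 and ugt-3 are dim, with mean signals of 5.37 and 5.68 where the lowest deposited value is 4.887, so a small spread there does not limit how far the transcript may have changed. The gene ugt-24 (gene 177380) read 8.99, 9.05 and 9.0 with albendazole and 9.05, 8.97 and 8.94 with DMSO. Its log2 fold change was 0.03, with a 95% confidence interval from -0.19 to 0.25. For ugt-2 (gene 179450) it was 0.03, from -0.22 to 0.27, and for ugt-3 (gene 191174) -0.01, from -0.25 to 0.23. The sign of these 3 genes was not stable under all scalings, as it turned for ugt-3 and ugt-24 under quantile normalization and for all 3 under cyclic loess.

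ABZ replicate 2 was the highest of the 6 arrays for 19 of the 57 genes (33.3%), against 11.5% of all genes, and the lowest for 3. ABZ replicate 1 was the highest for 10 and the lowest for 13. A distance of more than 0.5 on the log2 scale above the mean of ABZ replicates 1 and 3, a limit chosen after the values were seen, was found in 12 of the 57 (21.1%) and in 1.8% of all genes. For ABZ replicate 1 against the other albendazole arrays the corresponding numbers were 4 of the 57 and 2.75% of all genes, and for ABZ replicate 3 they were 0 and 0.216%. Over all probe sets ABZ replicate 2 did not stand apart, with correlations of 0.99 to 0.996 with the arrays other than DMSO replicate 1.

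These 12 genes were ugt-1, ugt-8, ugt-9, ugt-14, ugt-25, ugt-29, ugt-33, ugt-35, ugt-39, ugt-58, ugt-61 and ugt-62, several of them named only here because of this distance. It reached from 0.59 in ugt-35 to 1.92 in ugt-25. Without ABZ replicate 2, 8 of the 12 still had a positive log2 fold change, while ugt-14 had -0.29, ugt-29 -0.41, ugt-35 -0.43 and ugt-61 -0.44. In ugt-14 (gene 186767) the arrays read 6.56, 7.56 and 6.60 with albendazole and 7.14, 6.67 and 6.80 with DMSO, so ABZ replicates 1 and 3 lay below all DMSO arrays and ABZ replicate 2 above them. Among the 7 ugt genes left out, 6 showed the same distance in ABZ replicate 2. These 7 hold most of the large fold changes of the family, and a high ABZ replicate 2 raises a fold change. Their count is therefore partly a product of how they were set apart and adds no support to the pattern. The culture and array of ABZ replicate 2 cannot be told apart, and the part of either in this pattern was not tested.

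**Figure D4:**
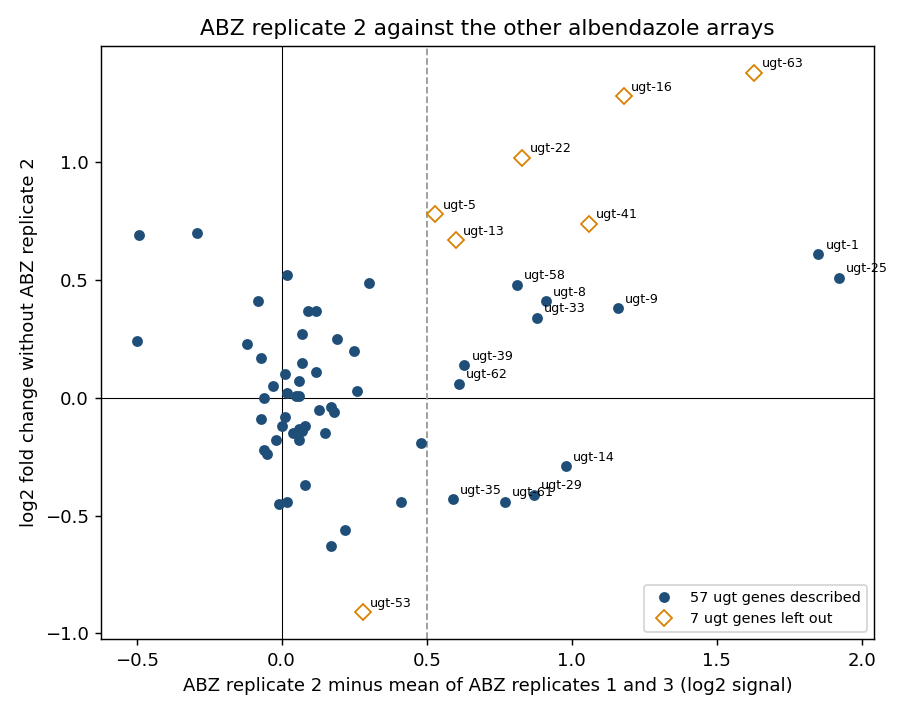
Each point is a ugt gene: the x axis gives how far ABZ replicate 2 lies above the mean of ABZ replicates 1 and 3 (log2 signal), and the y axis the log2 fold change when ABZ replicate 2 is left out; circles are the 57 genes described and diamonds the 7 left out. Right of the dashed line at 0.5 lie 12 circles and 6 diamonds, and ugt-1 and ugt-25 are the circles farthest to the right.

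ABZ replicate 1 lay more than 0.5 above the mean of the other albendazole arrays in a different set, ugt-21, ugt-43, ugt-46 and ugt-57. In ugt-21 ABZ replicate 2 lay near it, at 7.62 against 7.86, and ABZ replicate 3 was low, at 6.79. The gene ugt-46 (gene 180404), named after its values were seen, read 10.71, 9.70 and 9.67 with albendazole and 9.84, 9.37 and 9.31 with DMSO, where replicate 1 was the highest array of either group. The log2 fold change was 0.52 (SE 0.32; limma p 0.152), and 0.18 without ABZ replicate 1, and a second probe set of the gene gave 0.65. Of the 57 genes only ugt-46, ugt-48 and ugt-50 had more than 1 probe set. With all arrays, the probe sets of a gene gave the same sign, with 0.15 and 0.29 for ugt-48 and 0.11, 0.23 and 0.40 for ugt-50. The signs of ugt-48 were opposite without DMSO replicate 1, at -0.04 and 0.09, and the values of ugt-50 were 0.02, 0.01 and 0.12.

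Many ugt genes lie next to each other on a chromosome. When runs were formed of ugt genes with at most 2 other protein-coding genes between them, in the gene order of WBcel235, there were 12 runs that held 32 of the 57 genes, and 25 lay outside. Of the 32, 17 had a positive log2 fold change, and of the 25, 15. The longest run had 8 genes, in the order ugt-12, ugt-11, ugt-9, ugt-10, ugt-67, ugt-8, ugt-14 and ugt-13. Within it the log2 fold changes were 0.19, 0.30, 0.77, -0.12, -0.58, 0.72 and 0.04 for the first 7, and 0.87 for ugt-13, which was left out. The value of ugt-67 rests on DMSO replicate 1 and was -0.07 without it, while that of its neighbour ugt-8 was then 0.70. Without ABZ replicate 2, ugt-8 had 0.41 and ugt-9 had 0.38.

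Values also differed between neighbours in other runs. The neighbours ugt-1 and ugt-2 had log2 fold changes of 1.23 and 0.03, and of 0.61 and 0.01 without ABZ replicate 2. In the run of ugt-26, ugt-27, ugt-28 and ugt-25 the values were -0.03, -0.11, 0.41 and 1.15, and -0.39, -0.08, -0.18 and 0.87 without DMSO replicate 1. Without ABZ replicate 2 they were -0.19, -0.13, 0.37 and 0.51. The gene ugt-5, left out at 0.96, is followed by ugt-4, ugt-6 and ugt-3 at -0.16, -0.48 and -0.01. Between ugt-18 at 0.07 and ugt-15 at 0.00 (6.21 in both groups) lies ugt-16, left out at 1.68. In contrast, ugt-43 and ugt-44 had similar values of 0.38 and 0.29, as had ugt-55 and ugt-56 with -0.34 and -0.26. The run of ugt-40, ugt-37 and ugt-38 had -0.11, 0.02 and -0.18. No difference between neighbours was tested, and none of the genes in the runs passed the test. The genes left out hold most of the large fold changes of the family. The contrast of ugt-5, ugt-13 and ugt-16 with their neighbours is therefore partly a product of how the sets were made.

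**Figure D5:**
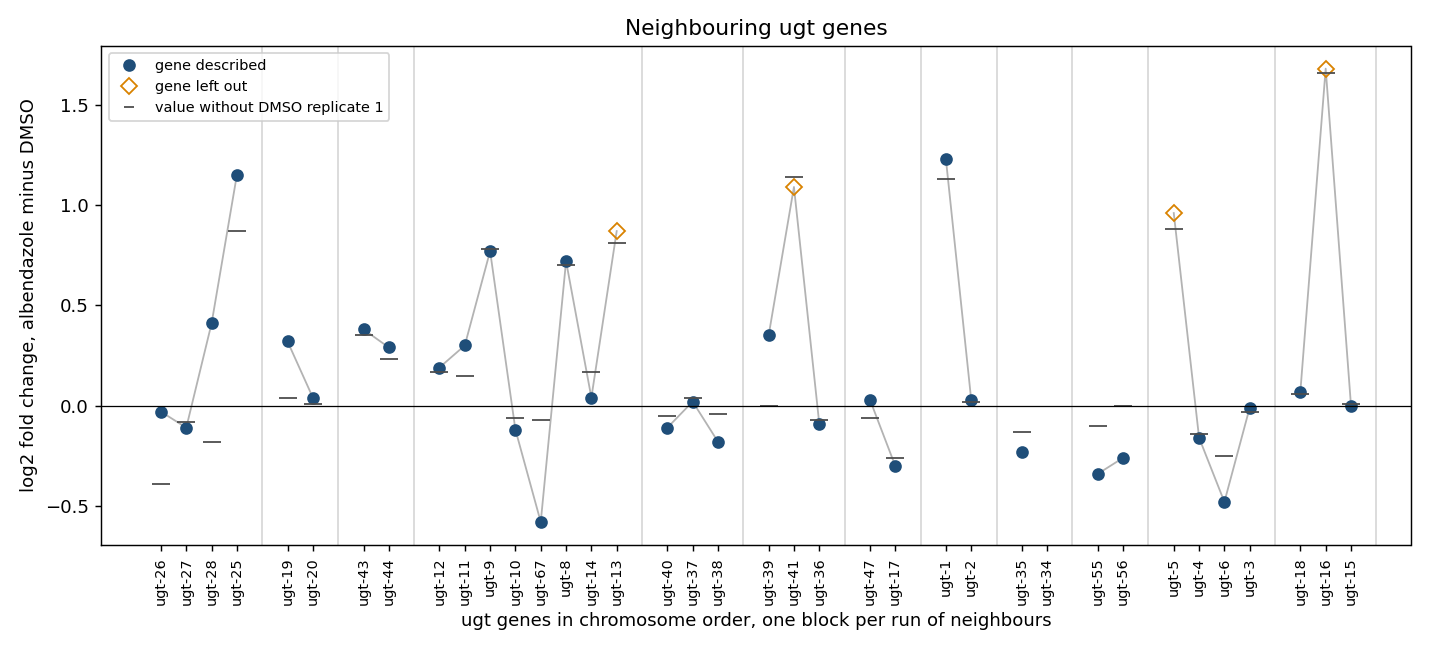
Log2 fold change (ABZ minus DMSO, y axis) of ugt genes that lie next to each other, in chromosome order (x axis), with 1 block for each of the 12 runs; circles are genes described, diamonds genes left out, and short dashes the value without DMSO replicate 1. The runs with ugt-1, ugt-5 and ugt-16 each hold 1 gene far above its neighbours. Of these, ugt-5 and ugt-16 are among the genes left out, which hold most of the large fold changes.

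The 7 genes left out are the closest comparison. Their log2 fold changes were 0.87 to 1.92 in ugt-13, ugt-5, ugt-41, ugt-22, ugt-16 and ugt-63 and -0.82 in ugt-53. Each had an adjusted p of 0.651, a value that ugt-10 of the 57 also had, with an unadjusted limma p of 0.292. The unadjusted limma p of the 7 ran from 0.00189 (ugt-5) to 0.0226 (ugt-41), and the smallest of the 57 was 0.0425 (ugt-8). This difference is partly a product of how the 7 were set apart. Of the 57, ugt-1 and ugt-25 exceeded the smallest log2 fold change of the 7 in size, and ugt-9 at 0.77 and ugt-58 at 0.75 lay just inside it.

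The remaining genes had overlapping groups and small or imprecise fold changes. The 45 genes whose groups overlapped had 24 positive and 21 negative values. Among those not yet given, ugt-45 (0.40), ugt-39 (0.35), ugt-19 (0.32), ugt-44 (0.29), ugt-62 (0.26), ugt-7 (0.17), ugt-60 (0.15), ugt-23 (0.12), ugt-64 (0.09), ugt-20 (0.04), ugt-47 (0.03) and ugt-37 (0.02) had positive log2 fold changes with all arrays. Leaving out DMSO replicate 1, ugt-45 had 0.15, ugt-39 0.00, ugt-19 0.04 and ugt-62 -0.09, ugt-44 kept 0.23, and the other 7 lay between -0.06 and 0.09. Negative ones were found in ugt-56 (-0.26), ugt-35 (-0.23), ugt-29 (-0.12), ugt-10 (-0.12), ugt-40 (-0.11), ugt-66 (-0.11), ugt-31 (-0.10), ugt-36 (-0.09), ugt-51 (-0.08) and ugt-59 (-0.02). With that array left out, ugt-29 had -0.44, ugt-31 -0.25 and ugt-35 -0.13, and the other 7 lay between -0.07 and 0.10. In ugt-31 (gene 189771) the albendazole arrays read 6.97, 7.10 and 6.94. DMSO replicates 2 and 3 lay above them, at 7.28 and 7.23, and DMSO replicate 1 below them, at 6.80. Without it the log2 fold change was -0.25 (SE 0.07; limma p 0.0145, adjusted p 0.775), the smallest p of the 57 in that setting. In ugt-26 the value went from -0.03 to -0.39 (p 0.0538). The genes in this account of the rest are named for completeness, and ugt-14, ugt-26, ugt-31 and ugt-44 were singled out after their values were seen.

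The enzymes need UDP-sugars, and their products need export. Of 20 measured genes around the family, limma called 0. Of the 5 measured genes of UDP-sugar supply and transport, sqv-4, which encodes UDP-glucose dehydrogenase, had a log2 fold change of 0.25 and ugtp-1, a UDP-galactose transporter, had 0.47. These values were 0.02 and 0.17 without DMSO replicate 1. The list's median was 0.25 with all arrays and 0.00 without DMSO replicate 1, which held its lowest summed signal (49.3, against 53.3 to 53.9 on the others). The 7 regulators of the response to foreign compounds had a median of 0.26, and 0.08 without that array. Among them the nuclear hormone receptor gene nhr-176 had -0.01 and skn-1, a regulator of detoxification genes, 0.47, which turned to -0.09 without DMSO replicate 1. The 8 mrp genes, which encode pumps of the family that exports conjugated drugs, had a median of 0.02, and -0.06 without DMSO replicate 1.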

How the data were processed

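The deposited table holds 1 value per probe set and array. Per the submitters' processing notes, the authors used RMA and limma, with no version, order or role given, and their deposited numbers were taken to be log2 signals because they span 4.887 to 14.89, with array medians within 0.07 of each other. The scale is not stated, no detection calls are given and the build behind the annotation is not given in the sources used here, so no positions are printed. Removing 77 control probe sets left 22548, of which 20766 list 1 gene. Groups were compared with limma 3.58.1 in R 4.3.3 (lmFit and eBayes with default settings, group as the only term, two-sided), with Benjamini-Hochberg adjustment over all 22548 probe sets and a call at an adjusted p under 0.05. Only the main limma fit was tested on simulated data of the same layout. The simulated noise was independent between arrays, so an array that stands apart, as DMSO replicate 1 does, was not covered. The labels call the samples biological replicates and state no pairing.

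The members, lists and tests were chosen with earlier results of these data known. Named genes are the 10 smallest p values in each direction, genes whose groups do not overlap, the 5 widest ranges over the arrays, the 5 smallest standard errors and genes whose probe sets differ in sign (0 found), together 27. A planned comparison of the proteins was not run, since no sequences were at hand. Alternatives were 3 scalings, a filter on dim probe sets, the replicate number as a block, an intensity trend, array weights, each array left out, averaged probe sets, adjustment over genes and stricter thresholds. Gene-by-gene weights, replicate 1 of both groups left out, and DMSO replicate 1 left out with an intensity trend were added after the data were seen.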

Additional observations from a re-analysis of the deposited data

How the results depend on the processing

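The count of called ugt genes was 0 of 57 with all arrays and in all 20 other settings, with 1 ugt gene at an unadjusted p under 0.05 in the comparison as reported. Over all genes 0 were called too, except with array weights (21 genes, 0.123%) and gene-by-gene weights (3 genes, 0.0175%). The smallest adjusted p among them ranged from 0.105 (array weights) to 0.961 (replicate 1 of both groups left out). The count at an unadjusted p under 0.05, 1 higher and 0 lower as reported, was 2 higher without the dimmest probe sets (1 in 3), under cyclic loess, with an intensity trend and with averaged probe sets, and 3 under quantile normalization, where 1.06% to 1.71% of all genes stood. Array weights, whose default estimate did not converge, gave 13 higher and 7 lower (together 20.1% of all genes), and the gene-by-gene weights 10 and 2 (4.46% and 5.19%). With DMSO replicate 1 left out and an intensity trend there were 3 lower (3.56% of all genes), while leaving out both replicates 1 gave 5 higher and 1 lower (2.33% and 1.59% of all genes). With each array left out in turn it lay between 1 and 4 higher and between 0 and 2 lower (0.462% to 2.73% and 0.0351% to 2.84% of all genes). The number of genes with ABZ above DMSO, 8 as reported, ranged from 10 to 15 with each array left out (9.6% to 14.1% of all genes) and was 13 without replicate 1 of both groups (14.1%), 10 under cyclic loess (6.37%) and 7 with arrays shifted to 1 median (7.13%) or without the dimmest probe sets (9.75%). The number with ABZ below, 4 as reported, ranged from 4 to 11 (12.6% to 19.6%) and was 2 under quantile and cyclic loess normalization (7.69% and 7.31%). Smaller groups separate more easily. The median log2 fold change of 0.029 became 0.099 without the dimmest probe sets, where 42 genes remained and the median of all probe sets kept was 0.14, and ranged from 0.007 to 0.066 with each array left out; 30 to 36 genes were then positive.

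Same-numbered samples deviated together only weakly (correlations of 0.12, 0.26 and 0.07 over all probe sets). Each albendazole array still correlated best with the DMSO array of its own number. The highest correlations with a DMSO array of another number were -0.1, 0.06 and 0.02. Correlations this weak cannot decide whether the numbers pair the samples. With the replicate number as a block 4 ugt genes had an unadjusted p under 0.05, all higher, where 1.12% of all genes stood, and 0 were called.

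Of the 27 named genes, the sign turned for ugt-3 (0.007 with arrays shifted to 1 median, 0.07 under quantile, 0.11 under cyclic loess, 0.03 without ABZ replicate 1, 0.01 without DMSO replicate 2, 0.009 without replicate 1 of both groups). For ugt-2 it turned under cyclic loess (-0.002), without ABZ replicate 1 (-0.01) and without replicate 1 of both groups (-0.02). For ugt-24 it turned under quantile (-0.19) and cyclic loess (-0.17), and for ugt-27 under cyclic loess (0.003). For ugt-28 it turned without DMSO replicate 1 (-0.18, also with an intensity trend), with gene-by-gene weights (-0.04) and without replicate 1 of both groups (-0.13), and for ugt-61 without DMSO replicate 2 (0.37). With each array left out in turn, ugt-2 ranged from -0.01 to 0.08, ugt-3 from -0.05 to 0.03, ugt-28 from -0.18 to 0.81 and ugt-61 from -0.64 to 0.37. The other 436 of 453 values of named genes kept their sign, and no named gene was called. The causes were not tested. The table gives no signal over background, so what dim probe sets can show is limited.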
